A study of Mus musculus with 2 samples.

Results

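The 10 genes described here belong to the system that holds zinc in balance inside the cell: the metallothioneins Mt1, Mt2 and Mt3, the metal-sensing transcription factor Mtf1, the zinc exporters of the SLC30 family Slc30a1, Slc30a4 and Slc30a5, and the zinc importers of the SLC39 family Slc39a8, Slc39a10 and Slc39a14. They were chosen by name, as the probe sets that the platform annotation assigns to one of these genes alone, and the list was drawn up with the low Mt1, Mt2 and Slc30a1 values of these arrays already known. They are 10 of the 18193 genes on the array and 21 of its 34945 probe sets that name 1 gene. Whole lungs were compared at E15.5 (the embryonic day) between wild type mouse embryos and TAZ-deficient littermates. TAZ, the product of Wwtr1, is a coactivator of transcription restrained by the Hippo kinases. In each group 4 RNA samples were mixed and hybridised to 1 Affymetrix mouse expression array. How TAZ was removed, the strain and the sex of the embryos were not found in the labels. Since each group is 1 array of 1 pool, replicates are lacking, and the differences below carry no test, p-value or replicate error.

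Metallothioneins are short proteins, rich in cysteine, that bind zinc and copper ions. When free zinc rises, the zinc finger factor MTF1 enters the nucleus, binds metal response elements in promoters and switches on Mt1, Mt2 and the plasma membrane exporter Slc30a1. Glucocorticoids and oxidative stress also induce metallothioneins. SLC30 proteins move zinc out of the cytosol, across the plasma membrane or into vesicles, and SLC39 proteins bring it in. Slc39a10 is described as a gene that MTF1 represses when zinc is plentiful.

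The promoters of Mt1, Mt2 and Slc30a1 are shown because these genes had the lowest ratios of the 10. Each line gives the 250 bases before the annotated start, 5′ to 3′ on the strand of the gene, from the RefSeq promoters of GRCm38.p6. Capitals mark the core of the metal response element, searched as TGCACNC or TGCGCNC on both strands. The regions are chr8:94178839-94179088 for Mt1, chr8:94172368-94172617 for Mt2 and chr1:191906531-191906780 for Slc30a1, all on the plus strand.
Mt1: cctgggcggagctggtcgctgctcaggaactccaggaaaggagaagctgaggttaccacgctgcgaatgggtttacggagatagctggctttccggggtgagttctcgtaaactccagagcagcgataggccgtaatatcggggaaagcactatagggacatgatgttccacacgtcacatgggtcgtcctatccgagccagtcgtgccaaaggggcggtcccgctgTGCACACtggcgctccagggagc
Mt2: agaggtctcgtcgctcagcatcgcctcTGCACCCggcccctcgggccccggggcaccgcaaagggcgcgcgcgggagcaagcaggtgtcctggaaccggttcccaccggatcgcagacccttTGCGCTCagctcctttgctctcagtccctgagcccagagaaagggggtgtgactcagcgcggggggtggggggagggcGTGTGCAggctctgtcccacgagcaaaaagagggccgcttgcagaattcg
Slc30a1: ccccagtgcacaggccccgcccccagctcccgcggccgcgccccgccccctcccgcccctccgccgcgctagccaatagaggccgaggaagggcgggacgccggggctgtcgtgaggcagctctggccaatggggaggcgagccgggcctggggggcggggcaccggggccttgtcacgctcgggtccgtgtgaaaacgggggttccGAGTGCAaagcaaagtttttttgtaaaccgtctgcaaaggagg

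Mt2 held 3 matches, beginning 223, 128 and 50 bases before the start. Mt1 held 1, beginning 23 bases before it, and Slc30a1 held 1, beginning 43 bases before it. Among all 32851 promoter windows of that length, 21.4% held at least 1 match and 1.26% held at least 3. The annotated start of Mt1 has further matches just after it, in the stretch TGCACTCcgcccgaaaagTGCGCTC, whose capitals mark the same core. Over the whole window of 300 bases, which adds 50 bases after the start, the count was 3 for Mt1, 4 for Mt2 and 2 for Slc30a1. It was also 3 for Slc30a4, whose signals were nearly alike in the pools (below), and 1 for Mt3. Of all such windows 25.7% held a match and 1.97% held at least 3. The annotated start of Mt1 may lie upstream of its main start, so its matches after the annotated start may lie before the main one. Which start the lung uses was not tested. A match is only a string of letters and does not show that MTF1 binds there.

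Wwtr1, the gene that encodes TAZ, followed the labels of the arrays at all 3 of its probe sets. The brightest read 791.2 signal units in the wild type and 11.3 in the TAZ-deficient pool, and the other 2 read 222.9 against 6.4 and 176.9 against 3.9. Signals are on the linear scale deposited by the authors. Log2 ratios are given as TAZ-deficient over wild type, with any value below 15.2 raised to 15.2. That value, the median of all signals, is called the floor, and a gene was called measured when either array was above it. Markers of the lung were well above the floor on both arrays, with surfactant protein C (Sftpc) at 4142.5 and 4121.5 and the lung mesenchyme factor Tbx4 at 970.0 and 993.5.

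Metallothionein signal was lower in the TAZ-deficient pool, by more for Mt2 than for Mt1. Mt2 has 1 probe set, which read 212.4 in the wild type and 25.1 in the TAZ-deficient pool, 8.46-fold lower, with a log2 ratio of -3.08. The brighter Mt1 probe set read 198.6 and 66.6, 2.98-fold lower, with a log2 ratio of -1.58. All of these signals lie above the floor, so neither ratio is a bound. The TAZ-deficient Mt2 signal is not far above it, and the size of the Mt2 ratio depends on how low signals are treated. With 16 added to each signal in place of the floor, the Mt2 log2 ratio was -2.47. Mt2 and Mt1 ranked the second and the third lowest of the 12032 measured genes, after Wwtr1. Both genes were listed with these low values known, so the ranks describe the choice.

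The Mt1 value rests on a single probe set whose suffix, _s_at, marks a set that can match transcripts of more than 1 gene. The other Mt1 probe set read 3.5 and 1.4, under the floor on both arrays, and gives no ratio. Mt3, the metallothionein best known from the brain, read 13.8 and 8.2 and was not measured. Mt4, a metallothionein of stratified epithelium and the remaining gene of the cluster, read 3.9 and 2.6. The low signal in TAZ-deficient lung was thus seen at the Mt2 probe set and at the shared Mt1 probe set. Whether the shared Mt1 set also reads Mt2 transcripts was not tested.

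**Figure D1:**
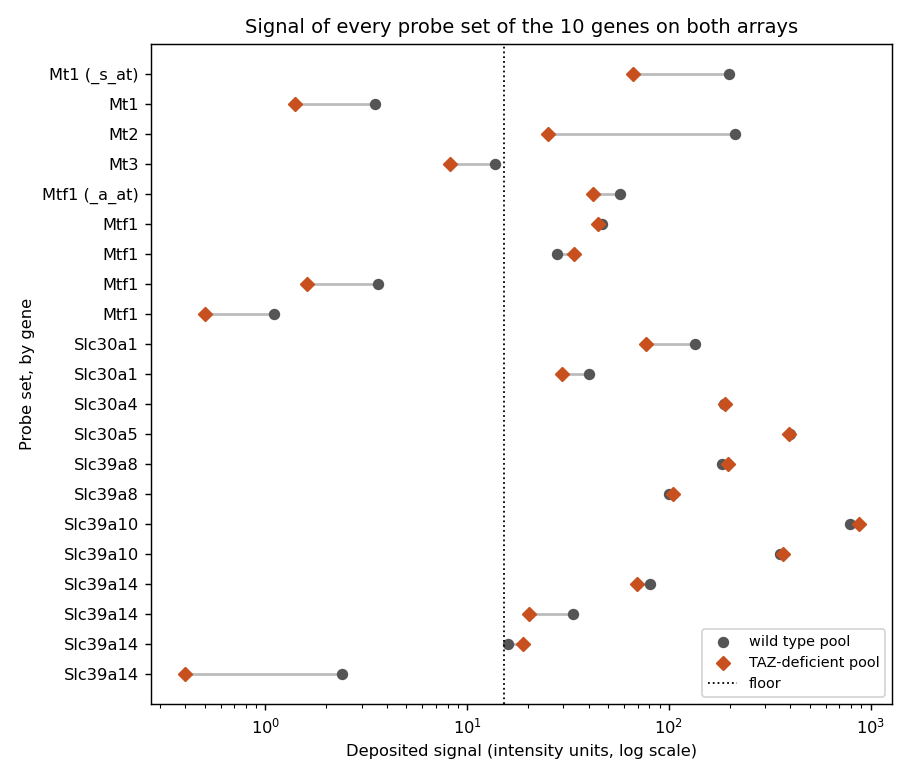
Signal of each of the 21 probe sets of the 10 genes on the wild type array (grey circles) and the TAZ-deficient array (orange diamonds), in deposited intensity units on a log axis, 1 row per probe set, with _s_at and _a_at suffixes shown. Mt2 runs from 212.4 to 25.1 and Mt1 from 198.6 to 66.6, while the 2 symbols nearly coincide for Slc30a4, Slc30a5, Slc39a8 and Slc39a10. The dotted line is the floor of 15.2.

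Mt1 and Mt2 lie next to each other in 1 cluster with Mt3 and Mt4 on chromosome 8, and the genes that flank the cluster read much the same on both arrays. Of the 5 protein-coding genes on either side, 9 had a probe set, 6 were measured and 0 were at least 1.5-fold different. Among all measured genes 1.47% were at least 1.5-fold lower and 1.28% higher. The nucleoporin gene Nup93, the neighbour on the side of Mt1, read 360.3 in the wild type and 359.9 in the TAZ-deficient pool. Bbs2, a gene of the ciliary BBSome complex and the neighbour on the side of Mt4, read 19.6 and 21.6. Nudt21, a subunit of a pre-mRNA 3′ end processing factor, read 1831.4 and 1952.0, and Herpud1, a gene of the endoplasmic reticulum stress response, read 310.8 and 297.4. Across the 6 flanking genes the log2 ratio ran from -0.27 (Ogfod1) to 0.14 (Bbs2).

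**Figure D2:**
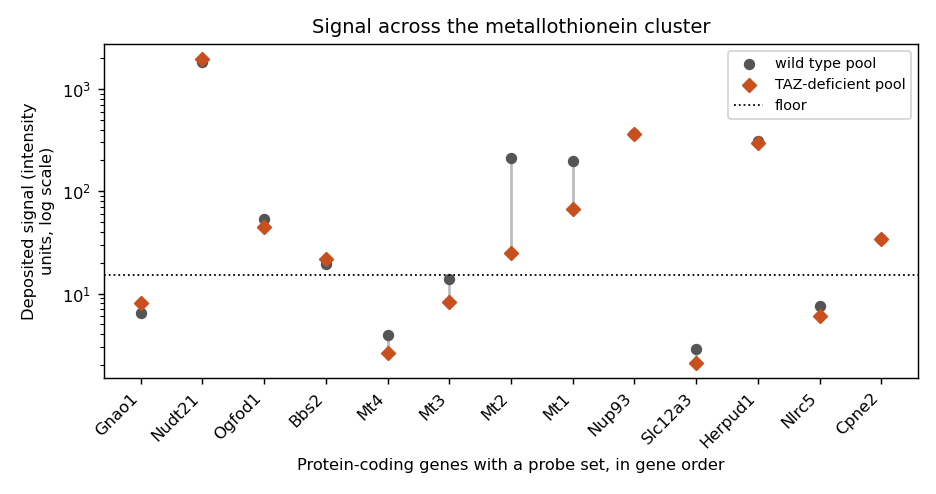
Signal of the protein-coding genes around the metallothionein cluster that have a probe set, in gene order on the x axis (not to distance), with wild type as grey circles and TAZ-deficient as orange diamonds on a log axis of deposited intensity units. Mt2 and Mt1 are the only genes above the floor (dotted, 15.2) whose symbols are far apart, and the ratios of the 6 measured flanking genes lie between -0.27 and 0.14 on the log2 scale.

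Mtf1, the sensor that drives metallothionein transcription, gave no single direction across its probe sets. The brightest, whose suffix _a_at marks a set for several transcripts of 1 gene, read 57.5 in the wild type and 41.9 in the TAZ-deficient pool, 1.37-fold lower. The second read 46.7 and 44.6, with a log2 ratio of -0.07, and the third read 27.9 and 34.0, 1.22-fold higher. The remaining 2 probe sets read at most 3.6. The log2 ratio of the brightest set was lower than that of the third by 0.74. For 5201 genes 2 or more probe sets were above the floor on both arrays, and the log2 ratios of the brightest and the second disagreed with an SD of 0.19 per probe set. That SD is the only error these arrays give, and it holds no variation between embryos, pools or labelling reactions.

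Among the exporters, Slc30a1 read lower in the TAZ-deficient pool at both of its probe sets, and Slc30a4 and Slc30a5 read nearly alike in the pools. Slc30a1, which carries zinc out across the plasma membrane, read 134.3 in the wild type and 77.3 in the TAZ-deficient pool at its brighter probe set, 1.74-fold lower, with a log2 ratio of -0.80. Its dimmer probe set read 40.0 and 29.5, 1.36-fold lower. The log2 ratios of these sets differ by 0.36. Slc30a4, which loads zinc into endosomes and secretory vesicles, read 187.0 and 189.9. Slc30a5, which works in the early secretory pathway, read 400.6 and 393.7. Both of these genes were within 1.02-fold of wild type.

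The importers read close to wild type. Slc39a10 read 793.3 in the wild type and 874.2 in the TAZ-deficient pool, 1.10-fold higher, at its brighter probe set, and the other read 357.0 and 369.4. Slc39a8, an importer of zinc, manganese and cadmium, read 182.7 and 196.0 at one probe set, 1.07-fold higher, and 100.6 and 104.7 at the other. The 4 probe sets of these genes had small positive log2 ratios, from 0.05 to 0.14. Slc39a14, which carries zinc, manganese and iron not bound to transferrin, had probe sets that disagreed. Its brightest read 80.2 and 69.2, 1.16-fold lower, its second read 33.4 and 20.2, 1.65-fold lower, and the third, near the floor, read 15.9 and 18.9. The fourth was below the floor at 2.4 and 0.4.

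With 1 probe set per gene, the brightest, 9 of the 10 genes were measured, 6 with a lower and 3 with a higher signal in the TAZ-deficient pool. At least 1.5-fold lower were 3 of the 9, namely Mt2, Mt1 and Slc30a1, beside 1.47% of all measured genes, and at least 1.5-fold higher were 0, beside 1.28%. At least 2-fold lower were 2 of the 9, beside 0.0748%, and at least 2-fold higher 0, beside 0.116%. The genes were chosen with these ratios known, so the share is a description of the choice. The median log2 ratio of the 9 was -0.21, beside -0.01 over all measured genes. By probe set, 16 of 21 were measured, and 4 of them were at least 1.5-fold lower, beside 1.81% of all measured probe sets, and 0 at least 1.5-fold higher, beside 1.62%. The fourth of these sets was the second set of Slc39a14.

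Genes of like brightness give a narrower background. Among the 4521 genes with a geometric mean signal of 50 to 200, where Mt1 (115.0), Mt2 (73.0) and Slc30a1 (101.9) lie, 0.796% were at least 1.5-fold lower and 0.752% higher. The central 95% of their log2 ratios ran from -0.43 to 0.39. In that range Mt2 and Mt1 were the second and the third lowest, and Slc30a1 ranked 13 from the lowest. Because Mt2, Mt1 and Slc30a1 were listed with their low values known, these ranks describe the choice. Slc39a14, Slc30a4 and Slc39a8 have mean signals in the same range, and their ratios lay inside its central 95%.

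**Figure D3:**
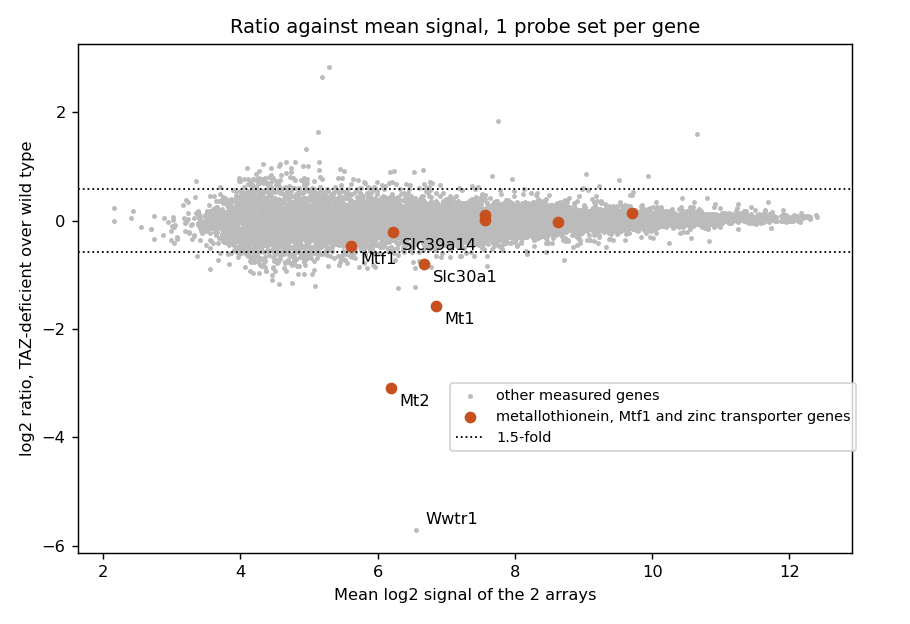
Log2 ratio between the arrays, TAZ-deficient over wild type (y axis) against the mean log2 signal of the 2 arrays (x axis), 1 point per measured gene, with the 9 measured genes of the list in orange and those with a ratio over 0.15 in size labelled. Mt2 (-3.08) and Mt1 (-1.58) lie far below the cloud, Slc30a1 (-0.80) lies just below the dotted 1.5-fold line, and the other 6 orange points lie within it.

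The other zinc transporters that could be measured were all within 1.5-fold, a statement that depends on the floor. Of 19 further genes, Mt4 included, 12 were measured, 9 with a negative and 3 with a positive log2 ratio, and 0 were at least 1.5-fold different. Their median was -0.05. The brightest were Slc39a6, an importer, at 451.1 in the wild type and 441.7 in the TAZ-deficient pool, and Slc39a7, which releases zinc from the endoplasmic reticulum, at 381.3 and 420.0. Taken with the 6 transporters above, 7 of 10 SLC30 genes were measured. Apart from Slc30a1, their log2 ratios ran from -0.17 (Slc30a6) to 0.23 (Slc30a3). Of 14 SLC39 genes 11 were measured, from -0.21 (Slc39a14) to 0.14 (Slc39a10). By the brightest probe set, Slc30a1 was the 1 zinc transporter of the 18 measured whose ratio reached 1.5-fold. This depends on the probe set, since the second set of Slc39a14 was 1.65-fold lower and the dimmer set of Slc30a1 was 1.36-fold lower. The same threshold was passed downward by 1.47% of the 12032 measured genes and upward by 1.28%. With so few transporters, a count of 1 does not set them apart from these shares. Slc30a1 was also listed with its low value known, so its place among the transporters describes the choice.

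No further gene described as an MTF1 target was 1.5-fold lower. Of 6 measured, Gclc being also on the stress list below, 0 were at least 1.5-fold lower, beside 1.47% of all measured genes. With so few genes, a count of 0 does not set the list apart from that share. At least 1.5-fold higher was 1, beside 1.28%, namely Pgf, the placental growth factor. It read 21.2 in the wild type and 32.6 in the TAZ-deficient pool, 1.54-fold higher. The lowest was the LIM domain gene Fhl1, which read 2078.2 and 1606.5, 1.29-fold lower. The log2 ratios ran from -0.37 (Fhl1) to 0.62 (Pgf), with a median of 0.03. A promoter window was found for 9727 of the 12032 measured genes. Among them, 93 of 6341 genes without a metal response element core were at least 1.5-fold lower (1.47%). The count was 31 of 2416 with 1 core (1.28%), including Mt1 and Slc30a1, and 6 of 970 with 2 or more (0.619%), including Mt2. Cores were counted only in the 250 bases before the annotated start, which for Mt1 may not be the main start. The medians of these groups lay between -0.02 and -0.01. No test was made of these shares.

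The genes of the glucocorticoid response list were within 1.5-fold at their brightest probe sets. All 12 were measured, 8 with a positive and 4 with a negative log2 ratio, and 0 were at least 1.5-fold different, with a median of 0.04. The shares over all measured genes were 1.47% at least 1.5-fold lower and 1.28% higher. The receptor Nr3c1 read 458.2 in the wild type and 420.4 in the TAZ-deficient pool. Its other measured sets went both ways, as at 162.3 and 201.6 and at 230.1 and 224.2. Errfi1, a feedback inhibitor of EGF receptor signalling, read 386.6 and 390.4. Ratios ran from -0.21 (Hsd11b1, the enzyme that regenerates active glucocorticoid) to 0.38 (Zbtb16). The other measured Zbtb16 set read 15.6 and 22.7. Whether glucocorticoids had a part in the metallothionein values was not tested.

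The measured genes of the oxidative and metal stress response were also within 1.5-fold at their brightest probe sets. Of 10 measured, 7 were positive and 3 negative, with a median log2 ratio of 0.06. Beside them, 1.47% of all measured genes were at least 1.5-fold lower and 1.28% higher. The thioredoxin Txn1 read 3012.2 in the wild type and 3169.3 in the TAZ-deficient pool, and the thioredoxin reductase Txnrd1 read 842.5 and 847.5. A dimmer set of each was more than 1.5-fold higher, at 17.9 and 29.7 for Txn1 and 32.1 and 49.4 for Txnrd1. The probe sets of Gsr, on the same list, went opposite ways, at 283.9 and 336.4 and at 271.2 and 183.2. Hmox1, a haem oxygenase induced by cadmium and haem, was 1.22-fold higher (119.8 and 146.0). Gclm, a subunit of the glutathione-making ligase, was 1.21-fold lower (231.4 and 190.6).

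Copper and iron genes included 1 gene past 1.5-fold. For comparison, 1.47% of all measured genes were at least 1.5-fold lower and 1.28% higher. Of 10 copper handling genes, all measured, 0 were 1.5-fold different, and the median log2 ratio was 0.07. The brightest were the copper chaperone Atox1 at 1351.1 in the wild type and 1378.2 in the TAZ-deficient pool, and the copper-zinc superoxide dismutase Sod1 at 1194.8 and 1245.3. The copper log2 ratios ran from -0.16 (Slc31a1) to 0.51 (Slc31a2, at 48.2 and 68.5). The other Slc31a2 probe set read 44.4 and 45.6. Of 7 measured iron handling genes, Tfrc, the transferrin receptor that brings iron into the cell, read 479.1 and 744.3, 1.55-fold higher. Its other 2 probe sets read 236.6 against 363.7 and 73.0 against 109.1. Tfrc is also abundant in red cell precursors, and whether these had a part in its value was not tested. The median of the iron list was 0.13. The ferritin heavy chain Fth1, an iron store, read 3539.9 and 3528.2.

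**Figure D4:**
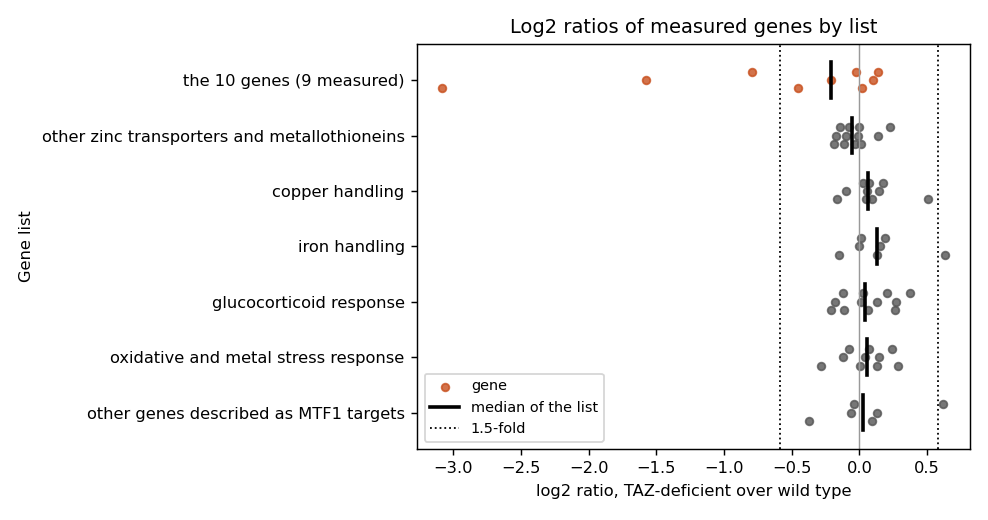
Log2 ratio between the arrays, TAZ-deficient over wild type (x axis) for each measured gene of the metallothionein and zinc transporter list (orange) and of the 6 comparison lists (grey), with the median of each list as a black bar and 1.5-fold as dotted lines. The 3 genes left of the lower dotted line are Mt2, Mt1 and Slc30a1, and the genes right of the upper one are Tfrc and Pgf.

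In whole lung, fewer cells that express a gene and less RNA of it per cell cannot be told apart. Markers of other tissues that may come with dissected lung were read beside the metallothioneins. Fetal liver is a known site of high metallothionein expression. Of 6 liver and yolk sac endoderm markers on the array 1 was measured, albumin (Alb) at 15.3 in the wild type and 10.7 in the TAZ-deficient pool. The 6 signals summed to 31.2 and 35.0, with none at 0. Of 6 heart muscle markers 4 were measured and 3 were at least 1.5-fold lower (Myl7, Myh7 and Tnnt2), beside 1.47% of all measured genes. Their 6 signals summed to 705.5 in the wild type and 532.9 in the TAZ-deficient pool, with none at 0. Most of each sum was Actc1, at 551.9 and 435.1. Of 4 red cell markers the 3 embryonic globins were at least 1.5-fold higher, beside 1.28% of all measured genes. The 4 signals summed to 1722.1 and 3905.9, with none at 0. Most of each sum was the globin Hbb-y, at 926.0 and 2825.8. Alas2, the enzyme of haem synthesis in red cells, read 662.4 and 609.2. Whether heart tissue or red cells had a part in the metallothionein values was not tested.

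The other motifs searched matched in some of the promoters of these genes. The 9 genes with a window, all but Slc39a14, gave 11 windows. The antioxidant response element core TGACNNNGC, found in 10.2% of all windows, matched once each in Mt2, Slc30a1 and the first window of Slc39a8. The TEAD motif GGAATG, the word bound by the DNA-binding partners of TAZ and found in 12.6% of all windows, matched in the first window of Slc39a8. The word TGTTCT of the glucocorticoid receptor, found in 16.1%, matched in Mtf1 and Slc30a5. Neither window of Slc39a10 nor that of Mt3 held any of the 4 motifs. The metal response element core also matched in Slc30a4 (2), Slc30a5 (1) and the second window of Slc39a8 (1), genes that read within 1.10-fold of wild type.

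**Figure D5:**
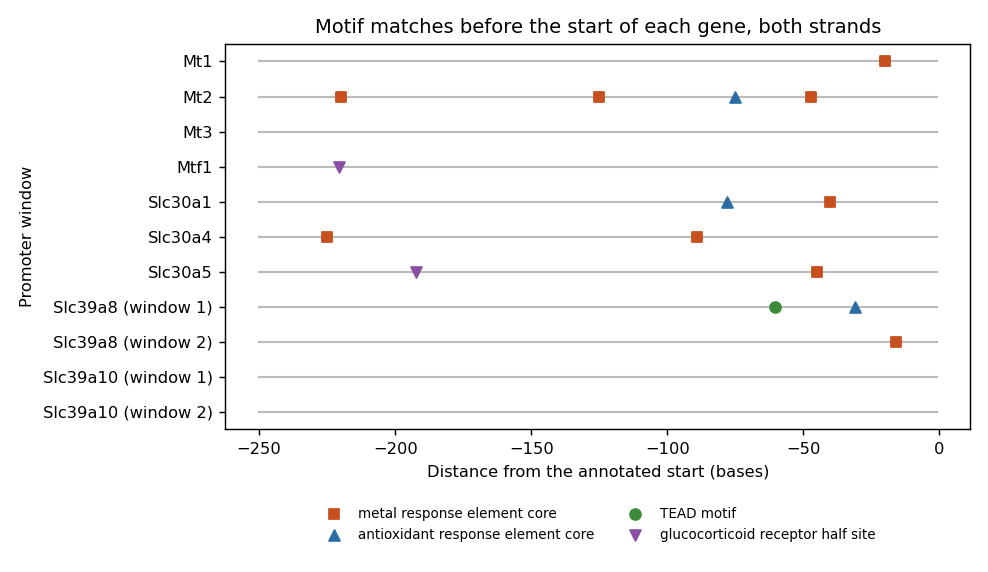
Positions of motif matches on both strands in the 250 bases before each annotated start (x axis, bases from the start), 1 row per promoter window of the 9 genes with a window. Mt2 holds 3 metal response element cores (orange squares), Slc30a4 holds 2, and Mt1, Slc30a1, Slc30a5 and 1 window of Slc39a8 hold 1 each.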

How the data were processed

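Whole lung RNA of wild type and TAZ-deficient embryos was measured on 2 arrays, 1 pool of 4 RNA samples each. The authors deposited 1 linear intensity per probe set. Per the submitters' processing notes, GCOS and MAS5 were used; versions are not given there. On each array the mean after removing the lowest and highest 2% was 100.001, so a common scaling can be read from the values, and a true difference in total RNA would not show. The platform annotation gave 1 gene for 34945 of 45101 probe sets, of which 34741 were updated through the Entrez identifier to GRCm38.p6. A gene was represented by its probe set with the highest mean log2 signal (signals below 1 set to 1). The floor, thresholds and lists are as given with the results. Genes named were all 10 of the list, up to 4 genes per comparison list past 1.5-fold or otherwise the 2 brightest, and Wwtr1. The cell type and tissue markers named are examples from longer marker lists and were not chosen by this rule. Hmox1, Gclm, Gsr, Fth1, the flanking genes and the ends of each range were added after their values were seen. Members and lists were chosen with earlier results of these data known. Alternatives were floors at the 25th and 75th percentiles (4.3 and 106.3), log2(signal + 16), median centring, quantile normalization, loess (span 0.3), the median over probe sets, and leaving out _s_at, _x_at and _a_at sets. Calling was checked on simulated data, with changes well past 1.5-fold in genes well above the floor on both arrays. It was not checked for changes near 1.5-fold or for genes near the floor. Python 3.11.15, pandas 2.3.3 and statsmodels 0.14.6 were used. Protein sequences were not used here.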

Additional observations from a re-analysis of the deposited data

How the results depend on the processing

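The counts of genes on the list at least 1.5-fold different ran from 2 to 4 lower and stayed at 0 higher over the 8 alternatives. The fourth lower gene, with the floor at the 25th percentile, was Mt3 (13.8 and 8.2, 1.68-fold), beside 7.14% of all genes measured there. Under a 75th percentile floor, 2 of 7 measured were lower (Mt1 and Mt2), beside 0.169% of all measured genes. The ratios there, -0.90 for Mt1, -0.999 for Mt2 and -0.34 for Slc30a1, are all bounds, since the TAZ-deficient signals were raised to the floor. Without _s_at, _x_at and _a_at sets Mt1 could not be measured and 2 of 8 measured were lower, beside 1.74% of all measured genes. With log2(signal + 16) the ratios were -1.38 for Mt1 and -2.47 for Mt2. Mtf1 was at -0.07 without those sets, as it was for the median over its probe sets. Median centring, quantile normalization and loess left Mt2 between -3.07 and -3.05, and Mt1 between -1.57 and -1.55. Of the comparison lists, the other zinc transporters had 4 genes 1.5-fold different with the floor at the 25th percentile, all below 15.2 on both arrays (Slc30a10 higher; Slc30a2, Slc39a2 and Slc39a5 lower). The MTF1 target list had 0, in place of Pgf alone, under log2(signal + 16) and under the 75th percentile floor. The window of 300 bases was chosen after seeing the data. No paired analysis was possible because each group is 1 array.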
